A study of Rattus norvegicus with 6 samples.

Results

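The genes described here make and fill the hormone granule of the beta cell. They are Pcsk1, Pcsk2, Cpe, Pcsk1n, Scg5, Pam, Slc30a8, Chga, Chgb and Ptprn, and they were chosen by gene name for their known roles in prohormone processing and granule content. All 10 were found among the 19289 features of the deposited table, and all 10 were among the 12460 features that were tested because their FPKM averaged 1 or more. FPKM counts fragments per length of transcript, scaled to the library's total, so levels of different genes can be compared on it. The study measured polyadenylated RNA in 6 libraries of INS-1E, an insulin-secreting line grown from a rat insulinoma. Uric acid was present for 24 hours in 3 of them, and 3 were untreated. Both groups are the same line with no genetic change named. The labels used here name no concentration of uric acid and no vehicle, and leave unstated whether the 3 libraries of a group were separate cultures. The p-values therefore measure the spread between these libraries, which may be technical.

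A hormone such as insulin is made as a longer precursor that is cut and trimmed while it is packed into dense granules. Subtilisin-like convertases cut at pairs of basic residues, a carboxypeptidase removes those residues, and some peptides are then amidated at their end. Both convertases of the granule have a small secreted partner that restrains or helps them. Granins form the matrix of the granule, and in beta cells a zinc transporter loads the zinc with which insulin crystallises.

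Summed estimated counts were 41191819 to 48875962 in the uric acid libraries and 47858248 to 59092982 in the untreated libraries. Of 12 beta-cell markers 11 were listed, all at a mean of 1 FPKM or more, and they summed to 67197 to 79753 FPKM with uric acid and 68493 to 82527 FPKM without it. The 3 of 6 alpha-cell markers that were matched summed to 17.0 to 18.7 FPKM in uric acid libraries and 18.2 to 19.0 FPKM in untreated ones. The matched markers of acinar (1 of 5), endothelial (2 of 3) and immune cells (2 of 3) each summed to less than 1 FPKM in every library. Those of fibroblasts (4 of 5) summed to 2.31 to 3.04 FPKM with uric acid and 2.13 to 3.11 FPKM without it. Of 2 delta-cell markers 0 were matched. The 5 duct markers summed to 172 to 185 FPKM in uric acid libraries and 191 to 194 FPKM in untreated libraries. Nearly all of that was the keratin gene Krt7, at 170.4 to 183 FPKM with uric acid and 188 to 192 FPKM without it, and 1 of the 5, Sox9, was called lower. Their part in the results was not tested. These are bulk libraries, in which fewer expressing cells and less RNA per cell cannot be told apart.

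In the deposited positions, whose genome build is unstated, Scg5 (ENSRNOG00000007542) runs from 105235050 to 105279462 on the minus strand of chromosome 3. The same chromosome holds Pcsk2 (ENSRNOG00000005438, 137618898 to 137925605, plus strand) and Chgb (ENSRNOG00000021269, 125428260 to 125441594, plus strand). Ptprn (ENSRNOG00000019587) lies at 82446633 to 82461903 on the minus strand of chromosome 9, which also carries Pam (ENSRNOG00000033280, 111028575 to 111177602, plus strand). Pcsk1 (ENSRNOG00000011107) lies on chromosome 2 from 91450162 to 91497091, minus strand, and Pcsk1n (ENSRNOG00000007112) on chromosome X from 15324400 to 15327684, minus strand. Cpe (ENSRNOG00000043387) lies on chromosome 16 from 26906716 to 27014813, Slc30a8 (ENSRNOG00000004747) on chromosome 7 from 91832988 to 91867300, and Chga (ENSRNOG00000052549) on chromosome 6 from 126434226 to 126445568, all on the plus strand. Values are for whole genes, with exons and transcripts not separated.

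Only Scg5, which encodes the chaperone of the Pcsk2 convertase, passed the test among the 10 genes, and it was higher with uric acid. A gene was called when edgeR's two-sided quasi-likelihood test gave it a p under 0.05 after Benjamini-Hochberg adjustment across the 12460 features. By that rule 1 of the 10 genes was called higher, where 4.99% of all tested features were (622 of 12460), and 0 of the 10 were called lower, where 2.99% of all tested features were (372). At an unadjusted p under 0.05 there were 2 of the 10, Scg5 and Ptprn, and 3199 of all tested features. DESeq2 also called 1 higher and 0 lower, and limma called 0 in either direction. All 3 uric acid libraries lay above all 3 untreated libraries for Scg5, Cpe and Chgb, which is 3 of the 10 against 16.8% of tested features. All 3 lay below for Pam and Ptprn, which is 2 of the 10 against 14.2%. Counts of 1 to 3 genes, set beside that background, are no result about the group as a whole. The median log2 fold change of the 10 genes was -0.0215, against 0.0013 for all tested features, and the median size regardless of sign was 0.0942, against 0.158. The standard error of the 10 genes had a median of 0.058 on the log2 scale, against 0.113 for all tested features.

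**Figure D1:**
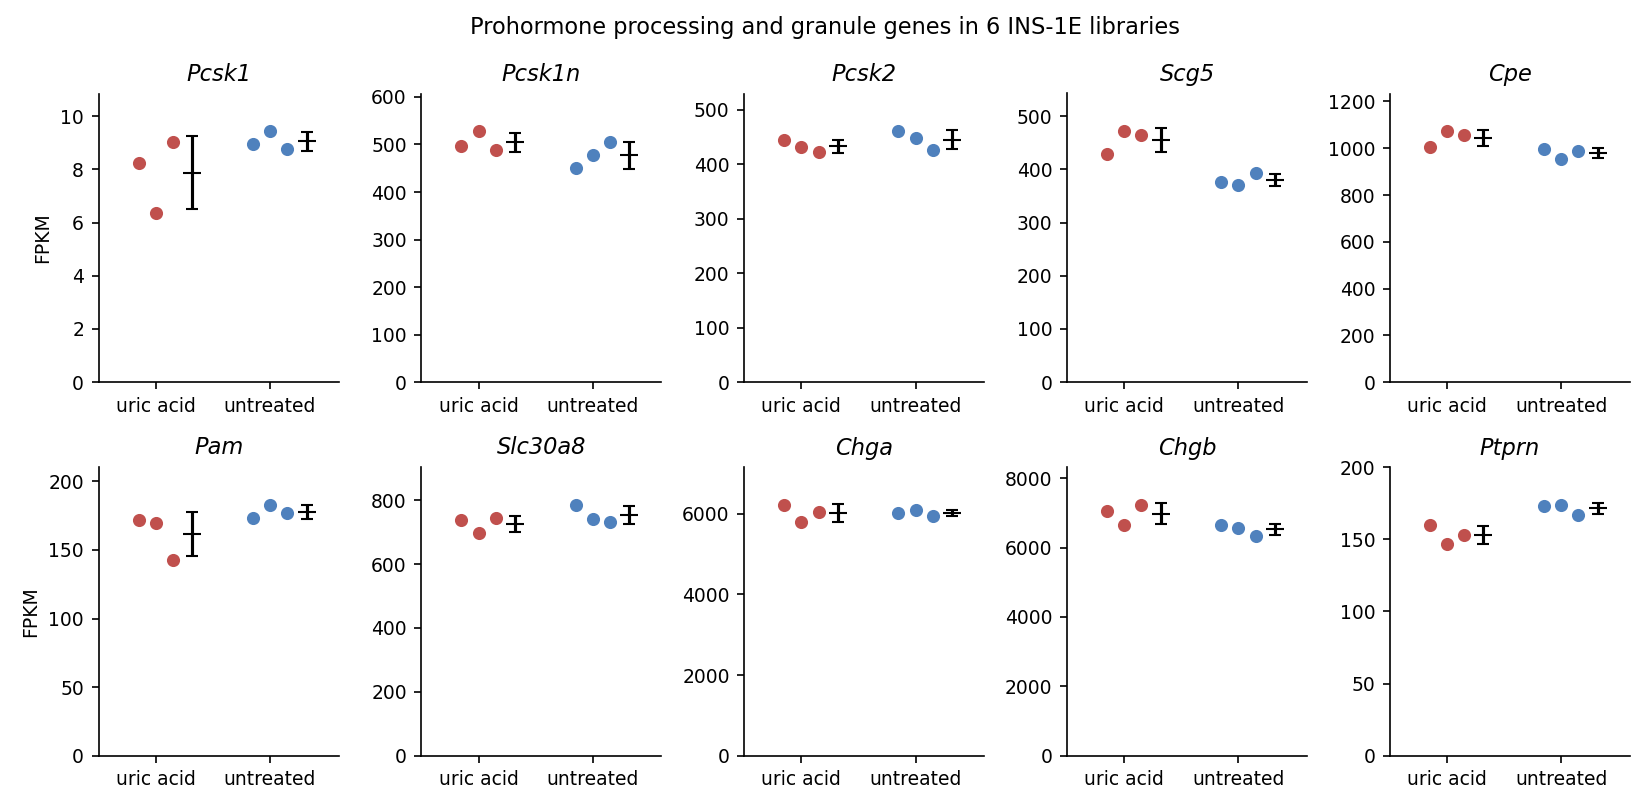
FPKM of each of the 10 genes (vertical axes from 0, 1 scale per gene) in the 3 uric acid libraries (red, left) and the 3 untreated libraries (blue, right), 1 point per library, with the mean and SD (black bars). The red points of Scg5 lie between 429.8 and 472 FPKM, all above the blue ones, while those of Ptprn lie between 147 and 159.6 FPKM, all below.

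The first cut of proinsulin and of many neuropeptide precursors is made by the convertase of Pcsk1. It had 8.24, 6.35 and 9.02 FPKM in the uric acid libraries, against 8.97, 9.44 and 8.76 FPKM in the untreated libraries. The second uric acid library was the lowest of the 6, the third lay within the untreated range, and the groups overlapped. The means were 7.87 ± 1.37 FPKM with uric acid and 9.06 ± 0.35 FPKM without it (SD, n = 3 each), and the coefficient of variation was 17.5% with uric acid and 3.86% without it. The log2 fold change was -0.20 ± 0.12 (SE; 95% interval -0.47 to 0.07; adjusted p = 0.319 in edgeR), so neither a fall to 0.72 times the untreated level nor a small increase lay outside the interval. The value was -0.08 without the second uric acid library and -0.31 without the third. Pcsk1 was also the most thinly covered of the 10, with 1606 to 2517 estimated counts in uric acid libraries and 2593 to 3266 in untreated libraries. Pcsk1n encodes proSAAS, a secreted inhibitor of that convertase. Its levels were 496, 528 and 489 FPKM in uric acid libraries, against 449.6, 477 and 506 FPKM in untreated libraries. The groups overlapped, and the log2 fold change was 0.08 ± 0.07 (-0.08 to 0.23; adjusted p = 0.526 in edgeR).

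The second convertase, Pcsk2, removes the other end of the C-peptide in proinsulin and also processes proglucagon. It had 445, 432 and 422 FPKM in the uric acid libraries, against 461, 449 and 427 FPKM in the untreated libraries. The ranges overlapped over most of their width. The means, 433 ± 11.7 FPKM with uric acid and 446 ± 17.2 FPKM without it (SD, n = 3 each), gave a log2 fold change of -0.04 ± 0.06 (-0.17 to 0.08; adjusted p = 0.673 in edgeR). The deposited positions place Pcsk2 over a feature on the other strand, AABR07054045, which reached at most 3.15 FPKM where Pcsk2 had at least 422 FPKM. The sources used here do not state the strand used in counting.

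Scg5 encodes a small secreted protein that binds the precursor of the Pcsk2 convertase in the endoplasmic reticulum, helps it mature, and keeps it inactive until late in the pathway. It had 429.8, 472 and 465 FPKM in the uric acid libraries, against 376, 371 and 393 FPKM in the untreated libraries. Every uric acid library exceeded the highest untreated one, the first by the smallest margin. The means were 456 ± 22.6 FPKM with uric acid and 379.9 ± 11.3 FPKM without it (SD, n = 3 each). Scg5 rose 1.2-fold (95% interval 1.08 to 1.33), a log2 fold change of 0.26 ± 0.07 with an adjusted p of 0.0439 in edgeR, and stood at rank 869 of the tested features by p. The call sat close to the threshold. With any 1 of the 6 libraries left out the value lay between 0.23 and 0.31 and the adjusted p between 0.0651 and 0.196, so the call was lost each time while the direction stayed. In 9 other settings of scaling, filter, model or block Scg5 was called in 4, with adjusted p from 0.00885 to 0.124.

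RefSeq promoter windows of the GRCr8 build were at hand for 7 of the 10 genes: Pcsk2, Cpe, Pcsk1n, Scg5, Pam, Chgb and Ptprn. Shown are the 250 bases before the listed start site for Scg5, the gene that was called, for Pcsk2, the convertase it serves, and for Cpe, the other processing gene whose groups did not overlap upward. Each is written 5′ to 3′ on the gene's own strand, and capitals mark TGACG or its reverse complement CGTCA, the core of the cAMP response element. The Scg5 window is chr3:121042796-121043045 on the minus strand, the Pcsk2 window chr3:151333688-151333937 on the plus strand, and the Cpe window chr16:29796457-29796706 on the plus strand. The last 86 bases of the Scg5 window lie inside the RefSeq gene, which has a start further upstream.
Scg5: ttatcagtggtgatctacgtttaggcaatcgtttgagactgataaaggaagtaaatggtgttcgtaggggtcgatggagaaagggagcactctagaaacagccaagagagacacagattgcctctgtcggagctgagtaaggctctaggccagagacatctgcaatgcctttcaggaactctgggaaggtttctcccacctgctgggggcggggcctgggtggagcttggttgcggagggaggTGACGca
Pcsk2: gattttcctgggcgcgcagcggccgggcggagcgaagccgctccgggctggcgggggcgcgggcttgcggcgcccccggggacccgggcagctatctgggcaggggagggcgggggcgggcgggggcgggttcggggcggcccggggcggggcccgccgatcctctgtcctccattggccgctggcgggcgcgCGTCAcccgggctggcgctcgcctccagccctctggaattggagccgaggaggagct
Cpe: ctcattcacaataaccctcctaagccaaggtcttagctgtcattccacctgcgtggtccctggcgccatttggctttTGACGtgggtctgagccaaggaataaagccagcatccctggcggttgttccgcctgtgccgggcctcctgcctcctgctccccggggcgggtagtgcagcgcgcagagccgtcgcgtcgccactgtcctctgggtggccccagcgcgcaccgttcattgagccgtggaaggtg
Counting the base before the start site as -1, the capitals begin at -7 in Scg5, at -57 in Pcsk2 and at -173 in Cpe. In windows of 300 bases, which also take in 50 bases after the start site, TGACG was present on either strand in 5 of 7 genes (Pcsk2, Cpe, Scg5, Pam and Ptprn) and in 21.2% of 33469 rat promoters. The whole palindrome TGACGTCA, which contains TGACG, was in 0 of 7 and in 1.83% of all. GGGCGG, the GC box bound by Sp1-type factors, was in 6 of 7 and in 33.1% of all, CANNTG in 6 of 7 and 72.1%, and CCAAT in 1 of 7, Pcsk2, and 37.5%. TATAAA, in 14.2% of all promoters, and TGATGNAA, in 3.98%, had no match in the 7. The start sites used for Ptprn and Pam lie 541 and 124556 bases inside their RefSeq genes, so both windows are downstream of another start. The 7 windows were 54.0 to 73.3% G and C, against a median of 51.7% over all promoters. These are matches of letters and say nothing of binding in these cells.

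After the cut, carboxypeptidase E, the product of Cpe, takes off the basic residues left at the end of each peptide. Cpe had 1006, 1073 and 1056 FPKM in the uric acid libraries, against 997, 955 and 988 FPKM in the untreated libraries. All 3 uric acid libraries were higher, the first of them by a margin smaller than the untreated range. The log2 fold change was 0.09 ± 0.06 (-0.04 to 0.22; adjusted p = 0.355 in edgeR) and did not pass the test. Pam makes the enzyme that turns a terminal glycine into an amide, a step that insulin does not need but islet amyloid polypeptide does. Its levels were 172, 169.6 and 143 FPKM with uric acid, against 173, 183 and 177 FPKM without it. The first uric acid library lay just under the lowest untreated one, and the third lay well below the other 5. The means of 162 ± 16.1 and 178 ± 4.86 FPKM in uric acid and untreated libraries (SD, n = 3 each) gave a log2 fold change of -0.14 ± 0.08 (-0.31 to 0.04; adjusted p = 0.297 in edgeR), and of -0.05 without the third uric acid library.

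Slc30a8 encodes ZnT8, which carries zinc into insulin granules. It had 738, 697 and 744 FPKM in the uric acid libraries, against 786, 739.6 and 733 FPKM in the untreated libraries. The groups overlapped, and the log2 fold change was -0.05 ± 0.06 (-0.18 to 0.08; adjusted p = 0.600 in edgeR), an interval whose lower end is a fold of 0.881.

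The granins Chga and Chgb, acidic proteins that aggregate with cargo and help to form granules, were the most abundant of the 10. Chga had 6226, 5797 and 6034 FPKM in uric acid libraries, against 6010, 6099 and 5943 FPKM in untreated libraries. The highest and the lowest of the 6 values were both from uric acid libraries. Its log2 fold change was -0.001 ± 0.05 (-0.12 to 0.12; adjusted p = 0.993 in edgeR), and this sign turned in 3 of 15 other settings, among them those without the second uric acid library (0.02) and without the second untreated library (0.0047). Chgb had 7042, 6661 and 7236 FPKM with uric acid, against 6655, 6576 and 6341 FPKM without it. The groups did not overlap, although the lowest uric acid library nearly met the highest untreated library. The log2 fold change of Chgb was 0.10 ± 0.06 (-0.03 to 0.22; adjusted p = 0.321 in edgeR).

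Ptprn encodes IA2, a transmembrane protein of the granule with a phosphatase-like domain, known as an autoantigen in type I diabetes and as a factor in granule stability in mice. It had 159.6, 147 and 153 FPKM in the uric acid libraries, against 173, 174 and 167 FPKM in the untreated libraries. Each uric acid library was below each untreated one. The means were 153 ± 6.52 FPKM with uric acid and 171 ± 3.91 FPKM without it (SD, n = 3 each). The log2 fold change was -0.16 ± 0.06 (-0.29 to -0.04), with an adjusted p of 0.113 in edgeR, so Ptprn was not called although its own interval lay below 0. The adjusted p was 0.0663 to 0.333 over 15 other settings, and the value was negative in each.

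**Figure D2:**
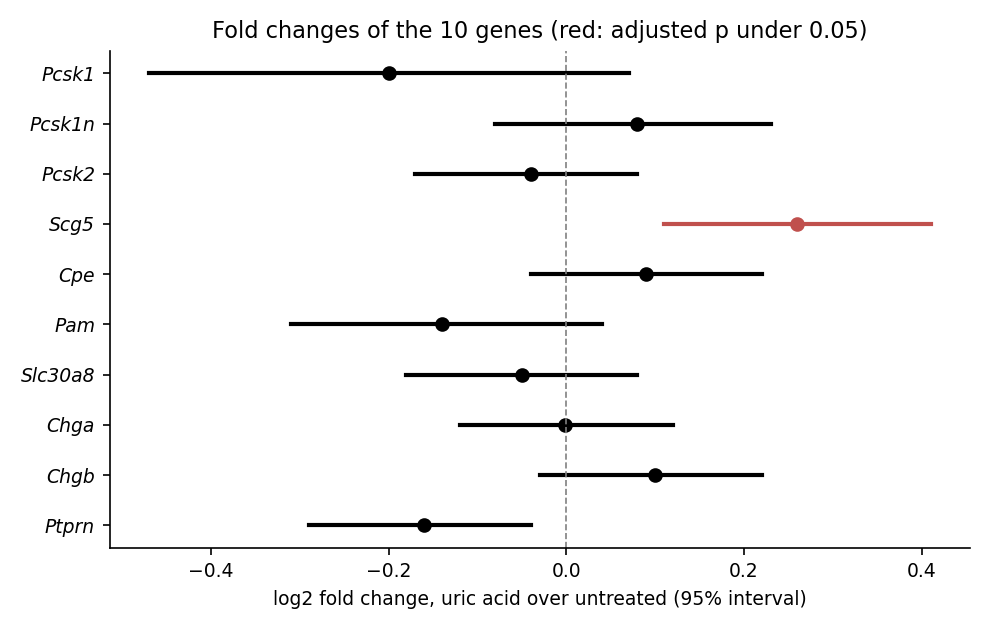
Log2 fold change of each of the 10 genes, uric acid over untreated (horizontal axis), with the 95% interval from edgeR (lines), red where the adjusted p was under 0.05. Scg5 at 0.26 is the red one. The interval of Ptprn also lies on 1 side of 0, and the widest belongs to Pcsk1, from -0.47 to 0.07.

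By level per length the 10 genes spread widely. Over the 6 libraries Chgb averaged 6752 FPKM and Chga 6018 FPKM, at ranks 9 and 11 of all tested features. Cpe followed at 1013 FPKM (rank 29), Slc30a8 at 739.6 (rank 42), Pcsk1n at 491 (rank 99), Pcsk2 at 439.5 (rank 119) and Scg5 at 418 FPKM (rank 130). Pam at 169.6 FPKM and Ptprn at 162 FPKM stood at ranks 382 and 406. Pcsk1 stood far below, at 8.46 FPKM and rank 7056, a level that exceeded only 43.4% of the tested features, and Ptprn was 19.1 times as high. The order held in every library except among close neighbours. Pcsk1n and Pcsk2 overlapped in the untreated libraries only, and Pam and Ptprn overlapped in both groups. Pcsk2 was above Scg5 in 1 of 3 uric acid libraries and in 3 of 3 untreated libraries.

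**Figure D3:**
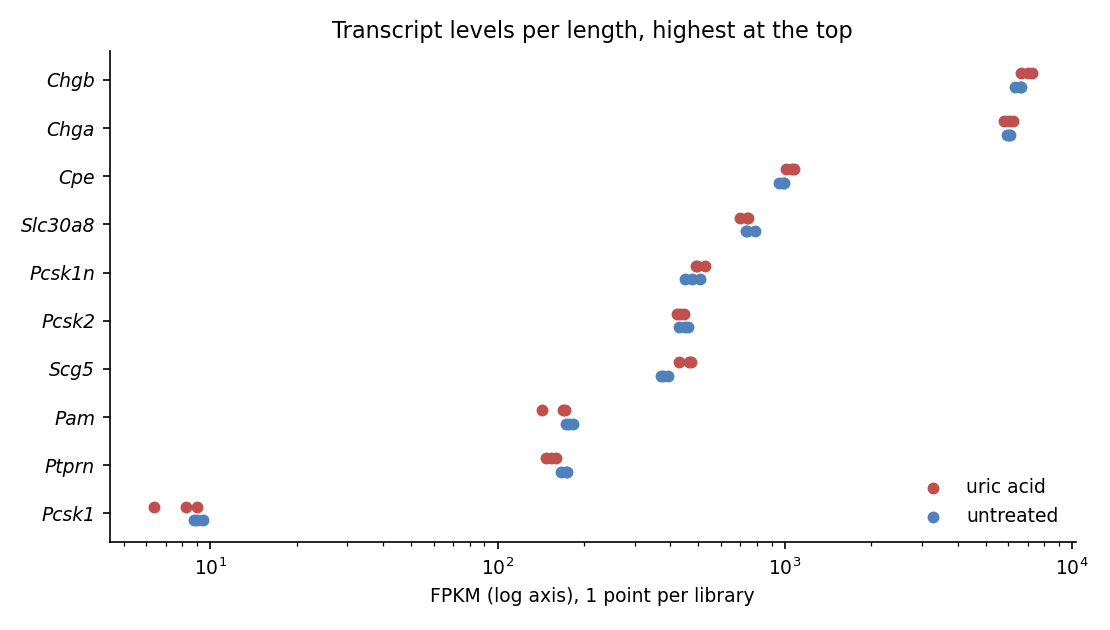
FPKM on a log axis (horizontal) of the 10 genes, highest at the top, with 1 point per library, uric acid in red and untreated in blue below it. Pcsk1, at 6.35 to 9.44 FPKM, lies apart from the other 9 genes. Pcsk2 lies above its neighbour Scg5 in 3 of 3 untreated libraries and in 1 of 3 uric acid libraries.

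The 10 genes together held 4.48, 4.31 and 4.58% of the estimated counts in the uric acid libraries, against 4.38, 4.34 and 4.26% in the untreated libraries. The shares overlapped. Chga and Chgb alone made up 3.57, 3.38 and 3.66% with uric acid and 3.44, 3.42 and 3.34% without it, and the other 8 genes held 0.918 to 0.93% with uric acid and 0.918 to 0.939% without it. Ins1 and Ins2, the main cargo, held 3.3 to 3.95% in uric acid libraries and 3.29 to 4.03% in untreated libraries. A share of counts also depends on transcript length. In FPKM, Chga and Chgb summed to 12458 to 13270 with uric acid and 12284 to 12675 without it. The sums for Ins1 and Ins2 were 60079 to 72908 FPKM with uric acid and 60587 to 73786 FPKM without it. Reads of these near-identical insulin genes may be divided uncertainly between them, so the pair was summed.

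Ratios of transcripts within a library do not depend on its depth, and 8 were computed for partners in the pathway. An exact permutation test of 3 libraries against 3 cannot go below p = 0.1 (two-sided), so no ratio could be called. Scg5 over Pcsk2, the chaperone against its convertase, was 96.5, 109 and 110% in the uric acid libraries, against 81.6, 82.6 and 91.9% in the untreated libraries. The groups did not overlap, and the difference of the mean log2 ratios was 0.30 (exact permutation p = 0.1, 0.4 after adjustment over the 8 ratios). Chga over Chgb was 88.4, 87.0 and 83.4% with uric acid, against 90.3, 92.7 and 93.7% without it. Here too the groups stood apart, with a log2 difference of -0.097 (exact permutation p = 0.1, adjusted 0.4). Pcsk1 over Pcsk2 was 1.85, 1.47 and 2.14% with uric acid and 1.95, 2.1 and 2.05% without it, which overlapped (exact permutation p = 0.4). Pcsk1n over Pcsk1, the inhibitor against its target, was 60.2, 83.1 and 54.2 in uric acid libraries and 50.1, 50.5 and 57.8 in untreated libraries, also overlapping (exact permutation p = 0.2). The ratios of Pcsk1, Pcsk2, Cpe and Slc30a8 to the summed insulin transcripts overlapped between the groups as well, with exact permutation p from 0.6 to 0.8.

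**Figure D4:**
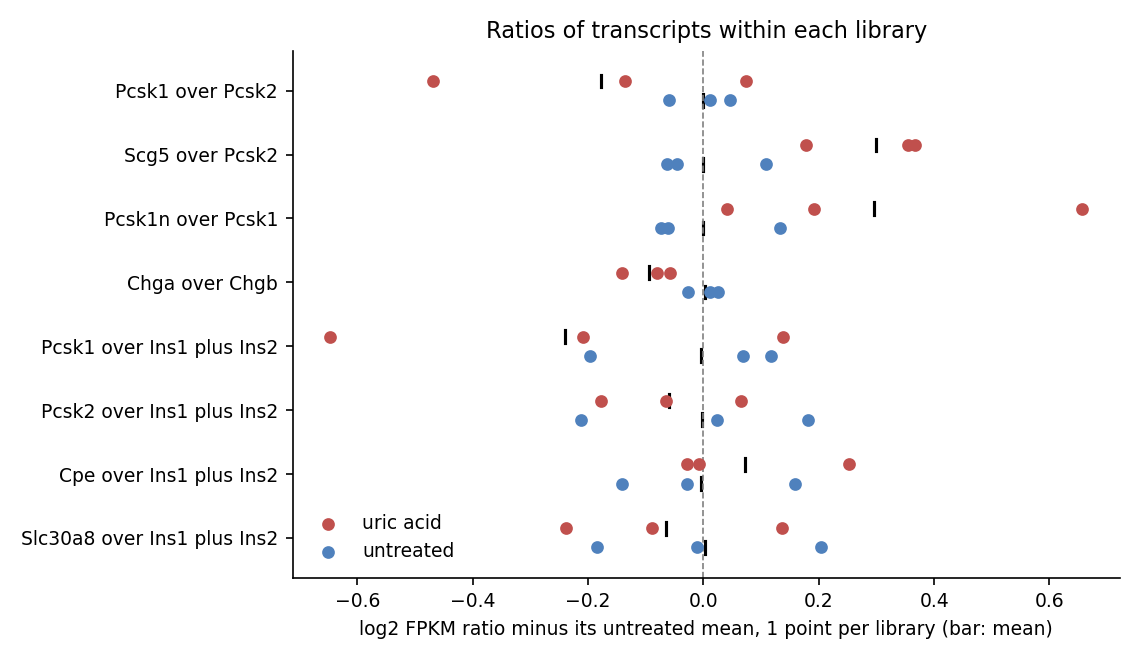
Log2 of 8 within-library FPKM ratios, each with its untreated mean set to 0 (horizontal axis), 1 point per library, uric acid in red above untreated in blue, with the mean as a black bar. The red and blue points are separate for Scg5 over Pcsk2, whose means differ by 0.30, and for Chga over Chgb, and they mix for the other 6.

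Correlations between the 10 genes across the 6 libraries had both signs, as a description with no test. Over their 45 pairs Pearson's r ran from -0.985 for Scg5 with Ptprn to 0.93 for Cpe with Scg5, and 19 were positive. Correlation of each gene with the mean profile of the 10 ranged from -0.653 for Pcsk1n to 0.862 for Chga (Pearson's r over 6 libraries, as a description with no test, the gene itself being part of the mean). The genes outside the group closest to that mean were Ric8b (r = 0.983), Adam23, Srrm3, Fam114a1 and AABR07028887 (r = 0.976). All 5 were lowest in the second uric acid library. Fam114a1, for example, had 8.64, 4.95 and 8.52 FPKM in uric acid libraries, against 8.88, 7.51 and 7.45 FPKM in untreated libraries.

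Other genes of granule proteins and cargo were set beside all tested features, of which 4.99% were called higher and 2.99% lower. Counts this small are no result about these lists. Of 11 tested granins and granule proteins outside the 10, 0 were called by edgeR, DESeq2 or limma, and 2 had an unadjusted p under 0.05 in edgeR. Scg2, a granin cut into secretoneurin, averaged 524 ± 28.2 FPKM with uric acid and 457 ± 28.3 FPKM without it, with groups that did not overlap (log2 fold change 0.20 ± 0.07, adjusted p = 0.114 in edgeR). Vgf, a granin-like precursor, averaged 279 ± 22.1 and 317 ± 14.1 FPKM in uric acid and untreated libraries (-0.19 ± 0.07, adjusted p = 0.147 in edgeR). Its groups did not overlap either, with uric acid lower. Vgf was called lower without uric acid library 3 (-0.25, adjusted p = 0.043 in edgeR), but not without any other library. Scg3, which binds Chga in the granule, and Ptprn2, the relative of Ptprn, overlapped between groups, at log2 fold changes of 0.05 and -0.05. Of 8 tested hormone genes 1 was called by edgeR, and it was higher: Ucn3, which encodes urocortin III of mature beta cells. It had 137, 188 and 151 FPKM in the uric acid libraries, against 114, 109 and 114 FPKM in the untreated libraries. All 3 uric acid libraries were higher, and Ucn3 rose by a log2 value of 0.50 ± 0.11 (adjusted p = 0.0296 in edgeR). That call was lost without untreated library 1, 2 or 3 (adjusted p = 0.0895, 0.135 and 0.075). Iapp, the amyloid polypeptide stored with insulin, averaged 6046 ± 534 FPKM with uric acid and 7289.8 ± 695 FPKM without it (-0.27 ± 0.09, adjusted p = 0.089 in edgeR), and its groups overlapped. DESeq2 called Iapp lower (-0.28, adjusted p = 0.0337), and limma did not call it (adjusted p = 0.204 with a pseudocount of 1). Ins1 and Ins2 were at 0.03 ± 0.11 and -0.03 ± 0.08.

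Of 16 tested convertases, carboxypeptidases and related enzymes outside the 10, 0 were called by edgeR, DESeq2 or limma. By edgeR 4.99% of all tested features were called higher and 2.99% lower. Of the 16, 1 had an unadjusted p under 0.05 in edgeR, and their median log2 fold change was 0.00. Furin, the convertase of the constitutive pathway, averaged 22.7 ± 2.54 FPKM with uric acid and 25.5 ± 1.5 FPKM without it (-0.17 ± 0.09, adjusted p = 0.266 in edgeR). Cpd, a carboxypeptidase of the trans-Golgi network, averaged 24.4 ± 6.74 FPKM with uric acid and 28.4 ± 6.9 FPKM without it. Furin stood at a higher FPKM than Pcsk1 in every library of both groups.

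Of 45 tested genes of granule biogenesis and acidification 2 were called higher and 0 lower by edgeR, where 4.99% and 2.99% of all tested features were. The list had a median log2 fold change of -0.04. At an unadjusted p under 0.05 there were 5 higher and 8 lower, where all 12460 tested features together had 3199. DESeq2 called 3 of the list higher and 4 lower, where it called 972 and 793 of all tested features. With limma there were 2 higher and 0 lower, where 533 and 288 of all tested features were called (pseudocount 1). Whether the list differs from all tested features was not tested. Rph3al, the RAB effector Noc2 of secretory granules, had 123, 124 and 130.2 FPKM in uric acid libraries, against 92.3, 99.9 and 94.9 FPKM in untreated libraries. The groups lay far apart. Rph3al rose by 0.39 ± 0.06 on the log2 scale (adjusted p = 0.00817 in edgeR) and was still called with any 1 library left out. Slc18a1, a vesicular monoamine transporter, was low throughout, at 2.33 ± 0.13 FPKM with uric acid and 1.16 ± 0.271 FPKM without it (1.01 ± 0.21, adjusted p = 0.0223 in edgeR). Its call was lost without uric acid library 1 (adjusted p = 0.0834), untreated library 1 (0.0588) or untreated library 2 (0.0666).

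Of 21 tested genes of zinc transport and storage besides Slc30a8, 0 were called higher and 1 lower by edgeR. Of all tested features 4.99% were called higher and 2.99% lower. At an unadjusted p under 0.05 the zinc list had 0 higher and 5 lower, where all 12460 tested features together had 3199. DESeq2 called 0 of the list higher and 1 lower, and limma called 0 in either direction at both pseudocounts. A difference between the zinc list and all tested features was not tested. Slc30a7, a zinc transporter of the Golgi, had 7.95, 6.81 and 6.39 FPKM in uric acid libraries, against 9.76, 9.37 and 9.24 FPKM in untreated libraries, and it fell by 0.42 on the log2 scale (SE 0.11, adjusted p = 0.0487 in edgeR). The groups did not overlap, but the call was lost with any 1 of the 6 libraries left out (adjusted p from 0.0653 to 0.162). Slc30a5, another zinc transporter of the early secretory pathway, averaged 20.0 ± 0.447 FPKM with uric acid and 22.8 ± 0.646 FPKM without it (-0.19 ± 0.06, adjusted p = 0.0928 in edgeR).

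Of 25 tested regulators known from beta or neuroendocrine cells, 2 were called higher and 3 lower, where 4.99% and 2.99% of all tested features were. Together 5 of the 25 were called by edgeR, where 994 of all 12460 tested features were. At an unadjusted p under 0.05 the list had 7 higher and 5 lower, and all tested features together 3199. DESeq2 called 4 of the list higher and 4 lower, where it called 972 and 793 of all tested features. Whether the list differs from all tested features was not tested. Log2 fold changes in the list ran from -1.59 to 0.53, with a median of 0.03, against 0.0013 for all tested features. Elavl4, a neuronal RNA-binding protein (HuD), had 11.3, 10.5 and 11.5 FPKM with uric acid, against 7.9, 7.31 and 7.84 FPKM without it. The groups were well separated, and Elavl4 rose by 0.53 ± 0.08 (adjusted p = 0.00566 in edgeR), a call kept with any 1 library left out. Foxa2, a pioneer factor of endoderm and islet, rose by 0.33 ± 0.06 (adjusted p = 0.0175 in edgeR), a call lost without untreated library 1 (0.0629) or 2 (0.103). Bhlha15, a factor of professional secretory cells, fell to 7.16, 7.18 and 9.9 FPKM in uric acid libraries, against 27.5, 24.6 and 20.9 FPKM in untreated libraries, and was called with any 1 library left out. Mafa, an activator of insulin transcription, fell to 282 ± 29.5 FPKM with uric acid, against 389 ± 16.8 FPKM without it (-0.46 ± 0.08, adjusted p = 0.0129 in edgeR). Without uric acid library 1 (adjusted p = 0.071) or untreated library 1 (0.0564) Mafa was not called. Isl1, a LIM factor of islet cells, averaged 41.3 ± 0.838 FPKM with uric acid and 50.6 ± 3.09 FPKM without it, and was called lower (-0.29 ± 0.06, adjusted p = 0.0282 in edgeR) with groups that did not overlap. With 1 library left out, Isl1 was not called without uric acid library 1 (0.107), untreated library 1 (0.101) or untreated library 2 (0.134). Pax6, a regulator of convertase and other granule genes in mice, averaged 110.4 ± 2.54 and 108 ± 1.06 FPKM in uric acid and untreated libraries (0.03 ± 0.06, adjusted p = 0.742 in edgeR). Pdx1, the master regulator of pancreas and beta cells, averaged 233 ± 15.7 FPKM with uric acid and 278 ± 14.6 FPKM without it (-0.26 ± 0.07, adjusted p = 0.0699 in edgeR). Neurod1, an activator of insulin and islet genes, averaged 93.3 ± 3.94 FPKM with uric acid and 82.0 ± 3.66 FPKM without it (0.19 ± 0.06, adjusted p = 0.107 in edgeR), and for both genes the groups did not overlap. Ptbp1, an RNA-binding protein that stabilises granule transcripts in beta cells, was at 0.03 ± 0.06. Rest, a repressor of neuroendocrine genes, was too low to be tested, at 0.0369 FPKM with uric acid and 0.133 FPKM without it.

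**Figure D5:**
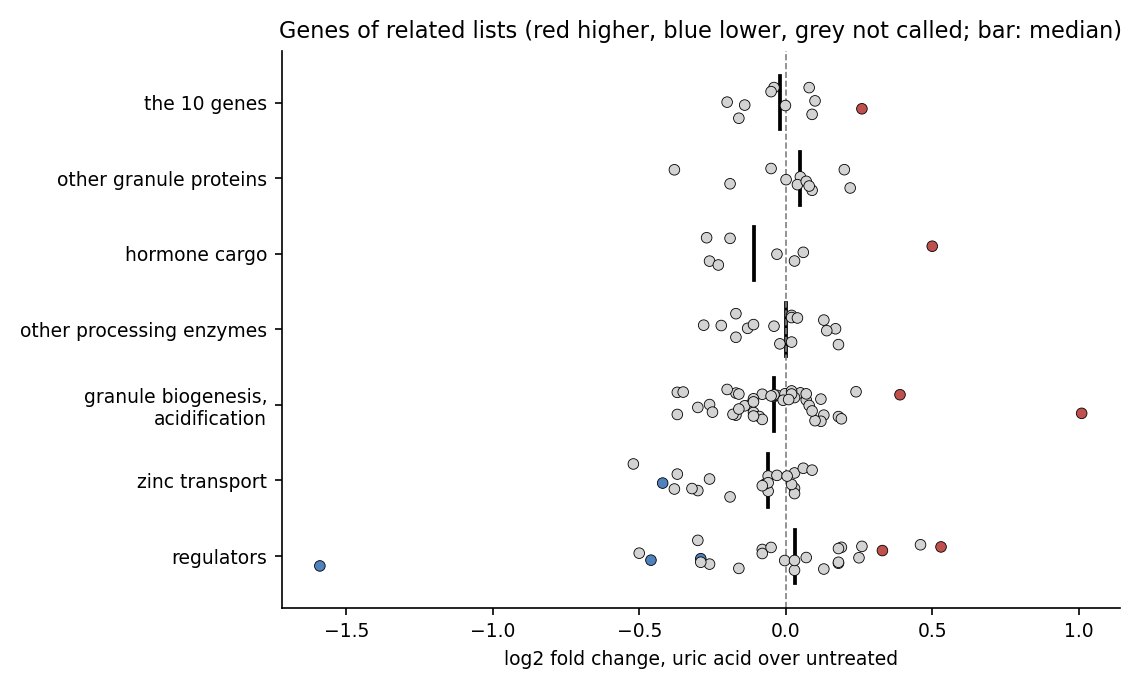
Log2 fold change, uric acid over untreated (horizontal axis), of every tested gene in the group of 10 and in 6 related lists (rows), red where called higher, blue where called lower and grey where not called, with the median of each row as a black bar. Scg5 is the red point of the first row, and Bhlha15, at -1.59, is the blue point farthest left in the last row.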

How the data were processed

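Per the labels' protocols, polyadenylated RNA was copied with a dUTP second strand and sequenced as read pairs. Tools listed in the submitters' processing notes, with no role for any, are StringTie 1.3.4d, HISAT2 2.0.4, cutadapt 1.9, edgeR and DESeq2. The genome build of the deposited table and the strand used in counting are not given in the sources used here. Per the file headers, the authors deposited an FPKM value and a count for each of 19289 features in each library. The deposited counts are whole numbers treated here as estimated counts, because, judged from the values, a read pair can add up to 4 of them; dividing by 4 was an alternative. The 10 genes, the related lists and the tests were chosen with earlier results of these data known. The lists name related genes by function, and all called members plus a fixed set were named.

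Features averaging 1 FPKM or more (12460; 6829 were lower) were tested in edgeR 4.0.16 under R 4.3.3, with TMM scaling (factors 0.992 to 1.009), the quasi-likelihood F test, no covariate, all 6 libraries and Benjamini-Hochberg adjustment, called at an adjusted p under 0.05. The fit was tested on simulated data. The common biological coefficient of variation was 0.127. Alternatives were other scalings, filters (mean FPKM above 0 or at least 5), DESeq2 1.42.0, limma 3.58.1 on log2(FPKM + 1) and log2(FPKM + 0.1), the replicate number as a block, and each library left out. FPKM values were used for levels and ratios. Promoter windows and their coordinates come from RefSeq (GRCr8) and were matched by symbol, and no coordinate was carried between builds. With 3 libraries a group the smallest exact permutation p of a ratio is 0.1.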

Additional observations from a re-analysis of the deposited data

How the results depend on the processing

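The direction of 9 of the 10 genes was the same in all 15 other settings, though the size varied, over -0.31 to -0.08 for Pcsk1, 0.03 to 0.13 for Pcsk1n and -0.18 to -0.05 for Pam; Chga, near 0, turned to 0.0057 with a filter at a mean FPKM of 5 and lay between -0.02 and 0.02 with 1 library left out. Scg5 kept its direction but was not called, so that 0 of the 10 genes were, with upper-quartile scaling (0.25, adjusted p = 0.0546), with a mean FPKM above 0 (0.26, 0.0555), with limma and a pseudocount of 1 (0.26, 0.0509) or 0.1 (0.26, 0.0513), and with the replicate number as a block (0.26, 0.124). With 1 library left out Scg5 lay between 0.23 and 0.31 and 0 of the 10 genes were called each time. The cause was not tested; these fits have fewer libraries and residual degrees of freedom. The group with 2 libraries was then assumed to vary like the other. Over all features DESeq2 called 972 higher and 793 lower and limma with a pseudocount of 1 called 533 and 288. Deviations from the group means correlated at 0.0684, -0.0492 and -0.19 between same-numbered libraries, and at -0.225 to 0.259 between the others. The labels used here do not say whether the number marks a pairing. These correlations cannot decide it, because centring on 3 libraries a group binds them to each other. The block gave 223 higher and 99 lower. Calls with 1 library left out were 165 to 707 higher and 66 to 466 lower; leaving out uric acid library 1 gave 224 and 75, untreated library 1 gave 254 and 104, untreated library 2 gave 165 and 66, and untreated library 3 gave 316 and 179. Among the related lists, DESeq2 called 1 hormone gene, Iapp, lower, 4 biogenesis genes lower and 4 regulators higher. The block called 0 hormone genes, 1 biogenesis gene and 1 regulator higher, and 0 zinc genes and 2 regulators lower. Under it Ucn3 (adjusted p = 0.0757), Slc18a1 (0.055), Slc30a7 (0.111), Foxa2 (0.0757) and Isl1 (0.102) were not called, and the zinc count was also 0 with a mean FPKM above 0 and with limma at both pseudocounts. With 1 library left out the calls were 0 to 1 granule protein lower, 0 to 1 hormone gene higher, 1 to 3 biogenesis genes higher and 0 to 2 lower, 0 to 2 zinc genes lower, and 1 to 4 regulators higher and 1 to 5 lower. Log2 fold changes near 0 changed sign there too: Ptprn2 ranged from -0.12 to 0.03, Ins1 from -0.05 to 0.13 and Ins2 from -0.09 to 0.05. The cause of these changes was not tested. Pcsk1 had the fewest counts of the 10 genes, 1606 in the smallest library.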

Other observations

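Of the 10 genes 8, all but Cpe and Pcsk1n, carry the term secretory granule in the deposited annotation, a term held by 58 tested features, which is 0.521% of the 11126 with any such term. Of the other 50 features with the term, 3 were called higher and 2 lower, where 4.99% and 2.99% of all tested features were. The 50 had a median log2 fold change of -0.02. The called genes named next were chosen after their values were seen. Stx3, a syntaxin of the fusion machinery, averaged 12.4 ± 1.0 FPKM with uric acid and 7.58 ± 0.622 FPKM without it (log2 fold change 0.70 ± 0.10, adjusted p = 0.00463 in edgeR). Sypl1, a synaptophysin-like vesicle protein, averaged 14.6 ± 1.18 and 9.91 ± 0.519 FPKM in uric acid and untreated libraries (0.56 ± 0.11, adjusted p = 0.0192 in edgeR), and Rph3al was the third to rise. Dynll1, a light chain of dynein, averaged 205 ± 3.78 FPKM with uric acid and 253 ± 11.2 FPKM without it (-0.31 ± 0.06, adjusted p = 0.0228 in edgeR). Hspd1, a mitochondrial chaperonin, averaged 116 ± 4.12 and 138 ± 3.24 FPKM in uric acid and untreated libraries (-0.25 ± 0.06, adjusted p = 0.032 in edgeR). Peptide hormone processing was the term of 6 tested features. Pcsk1, Pcsk2 and Scg5 were 3 of them, and of the others, Ece1, Furin and Pcsk6, none was called.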
